A study of Homo sapiens with 18 samples.

Results

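The 37 genes of the mitochondrial chromosome were taken from the deposited count table as every row that it places on chrMT, out of 58302 genes in all. They comprised 13 mRNA genes, 2 rRNA genes and 22 tRNA genes, and 17 of them had a count in some library. RNA-seq had been done on U87MG, a long-established line of human glioblastoma cells that the labels call U87, in 4 libraries. Control U87 cells grown under normal conditions gave 2 libraries, and U87 cells that received Erastin at 10 μM over 72 h gave the other 2. The design text calls them biological replicates and the labels name no vehicle for the control cells. Erastin inhibits the import of cystine into the cell, and the comparison asks how the RNA of cells driven towards ferroptosis differed from that of control cells. A single cell line was used, so the comparison holds for U87 alone.

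Mitochondrial DNA is a small circular genome that is present in many copies per cell. Both of its strands are transcribed into long RNAs that cover many genes, and the tRNAs lying between the other genes mark most of the places where these RNAs are cut. Its mRNAs encode core subunits of respiratory complexes I, III and IV and of the ATP synthase, its rRNAs form the core of the mitochondrial ribosome, and all other proteins of these assemblies come from nuclear genes. Complex II has no subunit from mitochondrial DNA.

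The genes lay close together. Of the 16569 bases of the chromosome (GRCh38, where the coordinates and strands of all 37 genes equal those of the reference annotation), 15300 lay in 1 gene, 58 in 2 genes and 1211 in none. The plus strand carried 28 genes, including 12 of the 13 mRNAs and both rRNAs, and the minus strand carried 9 genes, namely the mRNA MT-ND6 and 8 tRNAs. None of these genes has an intron. Each sequence that follows is printed 5′ to 3′ from the plus strand of GRCh38, because the layout of the genes sets which reads the counting could assign. The stretch chrMT:9976-10073 joins MT-CO3, MT-TG and MT-ND3, with the tRNA gene in capitals and no free base on either side of it. The stretch chrMT:15941-16053 holds MT-TP in capitals, and the control region, which carries no gene, follows it. The stretch chrMT:8512-8587 shows in capitals the 46 bases that MT-ATP8 and MT-ATP6 share, and chrMT:10745-10781 the 7 bases that MT-ND4L and MT-ND4 share. The stretch chrMT:14134-14163 shows the end of MT-ND5 followed directly, in capitals, by the last bases of MT-ND6, which is read on the minus strand.
MT-CO3, MT-TG and MT-ND3: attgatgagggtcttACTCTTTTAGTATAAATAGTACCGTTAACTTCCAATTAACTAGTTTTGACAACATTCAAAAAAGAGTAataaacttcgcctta
MT-TP and the control region: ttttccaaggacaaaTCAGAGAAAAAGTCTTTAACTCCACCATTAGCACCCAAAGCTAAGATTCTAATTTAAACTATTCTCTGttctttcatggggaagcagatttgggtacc
MT-ATP8 and MT-ATP6: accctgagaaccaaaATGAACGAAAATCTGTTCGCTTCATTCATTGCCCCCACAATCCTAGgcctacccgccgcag
MT-ND4L and MT-ND4: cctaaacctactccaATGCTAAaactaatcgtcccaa
MT-ND5 and MT-ND6: ctcctaatcacataaCCTATTCCCCCGAGC

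The libraries held between 29412656 and 31513519 counts of reads on genes. Of 9 glioma line markers, VIM, CD44, FN1 and TNC were abundant, SOX2 and S100B had at most 6 counts in any library, and GFAP had between 41 and 81. The summed level of that list was 11420 and 11749 CPM (counts scaled by TMM to a common library size) in the control libraries and 3884 and 4144 CPM in the Erastin libraries, and 5 of its 7 tested genes fell at an adjusted p under 0.05 (edgeR), compared with 23.7% of all tested genes. The summed level of 9 markers of immune, endothelial and epithelial cells was between 2.32 and 6.72 CPM in all libraries, with CD3E, KRT18 and CDH1 at 0 throughout. Of the 3 tested, 1 fell and 1 rose at an adjusted p under 0.05 (edgeR), against 23.7% and 23.2% of all tested genes. PECAM1 fell from 138 and 188 counts in control cells to 31 and 33 with Erastin, and VWF rose from 4 and 4 to 17 and 32. The part of the marker changes in the results was not tested.

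Mitochondrial genes took a smaller share of the counts in Erastin-treated cells. The share was 7.85% and 7.23% in the control libraries (95% Wilson intervals 7.84 to 7.85% and 7.22 to 7.24%) and 2.80% and 3.54% in the Erastin libraries (2.79 to 2.81% and 3.53 to 3.54%). The reads carry no molecular identifiers, PCR copies count more than once, and both reads of a pair were counted on their own. Intervals and floors take each count as independent, so they cover counting error only and are too narrow even for that. Over 2 libraries each, the mean ± SD was 7.54% ± 0.433 for control cells against 3.17% ± 0.521 with Erastin, and the groups did not overlap. The exact two-sided permutation test gave p = 0.33, which is the smallest value that 2 libraries against 2 allow. In bulk RNA, less mitochondrial RNA per cell cannot be told apart from fewer cells that hold much of it, and the number of copies of mitochondrial DNA was not measured in these libraries.

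Of the 37 genes, 16 had enough counts to be tested, namely the 13 mRNAs, both rRNAs and the tRNA gene MT-TP. Each of the 16 had at least 241 counts in every library, so the low-count filter did not depend on 1 group. All 16 fell with Erastin at an adjusted p under 0.05 (edgeR quasi-likelihood test, Benjamini-Hochberg adjustment over all 16751 tested genes), whereas 23.7% of all tested genes fell at that threshold. With a log2 fold change of -1 or below required as well, 10 of the 16 were called lower, against 9.34% of all tested genes. None of the 16 rose. Both Erastin libraries lay below both control libraries in 16 of 16 genes, against 36.9% of all tested genes. The median log2 fold change was -1.08 over the 13 mRNAs and -1.09 over the 2 rRNAs, while it was -0.0026 over all tested genes. The 37 genes sit on a few long transcripts, so they are not independent measurements of the treatment.

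**Figure D1:**
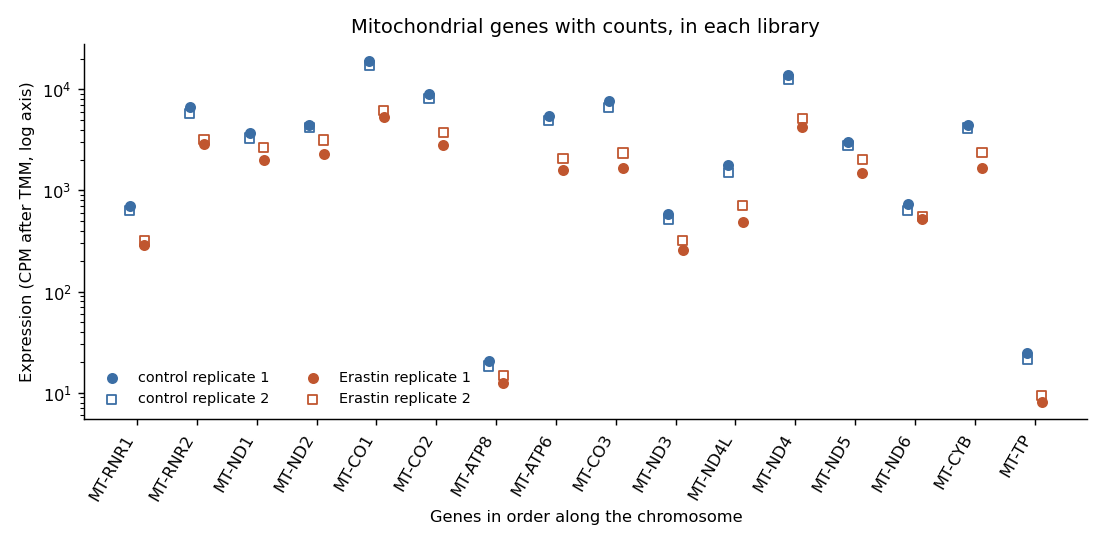
Expression of the 16 tested mitochondrial genes in each of the 4 libraries, in CPM after TMM scaling on a log axis, with genes in order along the chromosome. Blue points are control libraries and orange points Erastin libraries, and filled circles and open squares are replicates 1 and 2. In every gene both orange points lie below both blue points, and the gap is smallest for MT-ND6.

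The 3 mRNAs of complex IV, the cytochrome c oxidase that passes electrons to oxygen, had a median of -1.66 in log2 fold change, the lowest of the complexes, and all 3 passed both thresholds. MT-CO1 (chrMT:5904-7445), which encodes the subunit that holds the oxygen-binding centre, had 19011 and 17149 CPM in the control libraries and 5290 and 6160 CPM with Erastin. It fell by 1.66 on the log2 scale (SE 0.0827, edgeR adjusted p = 2.14e-08), to 31.7% of the control mean. It was the most abundant of all tested genes in control cells by CPM and ranked 3 in Erastin-treated cells. MT-CO2 (chrMT:7586-8269), whose protein takes up electrons from cytochrome c, had 8906 and 8063 CPM in control cells and 2794 and 3735 CPM in Erastin-treated cells. Its log2 fold change was -1.38 (SE 0.112, edgeR adjusted p = 1.22e-06), and its rank went from 3 to 11. MT-CO3 (chrMT:9207-9990), which encodes the remaining core subunit, had 7579 and 6659 CPM against 1657 and 2344 CPM. At -1.83 (SE 0.130, edgeR adjusted p = 4.13e-07) it had the lowest log2 fold change of the 16 genes, and its rank went from 4 to 33. In each of the 3 genes both Erastin libraries lay below both control libraries, and on the log2 scale the Erastin libraries differed from each other more than the control libraries did.

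Complex I, the NADH dehydrogenase, takes 7 subunits from mitochondrial DNA. All 7 mRNAs fell (median -0.73), but only MT-ND4 and MT-ND4L passed both thresholds. MT-ND4 (chrMT:10760-12137), which encodes a proton-pumping subunit of the membrane arm, had 13690 and 12417 CPM in control cells and 4277 and 5103 CPM in Erastin-treated cells, a log2 fold change of -1.48 (SE 0.0863, edgeR adjusted p = 7.80e-08). MT-ND4L (chrMT:10470-10766), a small membrane subunit whose reading frame runs into that of MT-ND4, had 1791 and 1507 CPM against 492 and 715 CPM, a log2 fold change of -1.45 (SE 0.140, edgeR adjusted p = 5.35e-06). MT-ND4L counts were 13.1% and 12.1% of MT-ND4 counts in control cells and 11.5% and 14.0% in Erastin-treated cells, so the ratio of these overlapping genes did not separate the groups.

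The other proton-pumping subunits of complex I, encoded by MT-ND2 and MT-ND5, changed less than MT-ND4. MT-ND2 (chrMT:4470-5511) had 4481 and 4213 CPM in control cells and 2301 and 3152 CPM in Erastin-treated cells, with a log2 fold change of -0.67 (SE 0.114, edgeR adjusted p = 0.000444). MT-ND5 (chrMT:12337-14148), the longest of the mRNAs, had 3029 and 2757 CPM against 1476 and 2021 CPM, with a log2 fold change of -0.73 (SE 0.116, edgeR adjusted p = 0.000288). MT-ND1 (chrMT:3307-4262) encodes the subunit beside the quinone site and had 3678 and 3304 CPM against 1989 and 2673 CPM. Its log2 fold change was -0.58 (SE 0.112, edgeR adjusted p = 0.00113). In these 3 genes Erastin replicate 2 kept between 69.8% and 76.6% of the control mean and Erastin replicate 1 between 51.0% and 57.0%. MT-ND3 (chrMT:10059-10404), a small membrane subunit, had 585 and 512 CPM in control cells and 255 and 322 CPM in Erastin-treated cells, a log2 difference of -0.93 (SE 0.102, edgeR adjusted p = 1.59e-05).

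MT-ND6 (chrMT:14149-14673), the complex I subunit that is the only mRNA of the minus strand, fell the least. It had 734 and 631 CPM in the control libraries and 523 and 555 CPM in the Erastin libraries, a log2 fold change of -0.34 (SE 0.0779, edgeR adjusted p = 0.00364). As a ratio of CPM, the lower control library was closer to the higher Erastin library than in any other of the 13 mRNAs, yet the groups did not overlap. Its share of the mitochondrial mRNA counts was 1.00% and 0.952% in control cells and 2.15% and 1.78% in Erastin-treated cells. MT-ND5, its neighbour on the plus strand, fell more, and MT-ND6 counts went from 24.2% and 22.9% of MT-ND5 counts to 35.5% and 27.5%. The counting took no account of strand, so RNA of the plus strand that runs across MT-ND6 cannot be told apart from its mRNA.

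MT-CYB (chrMT:14747-15887) encodes cytochrome b, the only subunit of complex III from mitochondrial DNA. It had 4427 and 4150 CPM in control cells and 1680 and 2370 CPM in Erastin-treated cells, with a log2 fold change of -1.08 (SE 0.122, edgeR adjusted p = 1.93e-05). Without Erastin replicate 1 its log2 fold change was -0.86, which left it short of the stricter threshold. For the ATP synthase, MT-ATP6 (chrMT:8527-9207), which encodes the proton channel subunit, had 5414 and 4913 CPM against 1603 and 2079 CPM. It fell by 1.49 on the log2 scale (SE 0.105, edgeR adjusted p = 3.80e-07). MT-ATP8 (chrMT:8366-8572), the small accessory subunit that is read from the same mRNA as MT-ATP6, had 20.8 and 18.4 CPM against 12.4 and 14.8 CPM. It fell by 0.53 (SE 0.137, edgeR adjusted p = 0.00763), and this call was lost without Erastin replicate 1, where the log2 fold change was -0.41 with an edgeR adjusted p of 0.0772.

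MT-ATP8 had far fewer counts than MT-ATP6, although both proteins are read from the same mRNA. MT-ATP8 counts were 0.384% and 0.374% of MT-ATP6 counts in control cells and 0.775% and 0.710% in Erastin-treated cells. Reads on more than 1 gene were not counted, and MT-ATP8 is 207 bases long and shares its end with MT-ATP6. Only 13 stretches of 150 bases touch MT-ATP8 and no other gene, compared with 485 for MT-ATP6 and 1405 for MT-CO1. The length of 150 bases was assumed, since the read length was not given in the sources used here. With reads of that length, the MT-ATP8 value rests on the part of the gene before the bases shared with MT-ATP6. Per 100 such stretches, control cells still held less of MT-ATP8 (148 ± 10.4 CPM) than of MT-ATP6 (1046 ± 54.0 CPM). Why MT-ATP8 had so few counts was not tested, and its level is not comparable with those of the other genes. The MT-ATP8 log2 fold change of -0.53 rests on the same part of the gene and differs from the -1.49 of MT-ATP6. Why they differ was not tested, and the change of MT-ATP8 is not taken here as that of the mRNA that both share.

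Both rRNAs fell, each past both thresholds. MT-RNR1 (chrMT:648-1601), the RNA of the small mitochondrial ribosomal subunit, had 706 and 628 CPM in control cells and 288 and 317 CPM in Erastin-treated cells, a log2 fold change of -1.14 (SE 0.0768, edgeR adjusted p = 2.68e-07). MT-RNR2 (chrMT:1671-3229), the RNA of the large subunit, had 6706 and 5776 CPM against 2870 and 3214 CPM, a log2 fold change of -1.04 (SE 0.0827, edgeR adjusted p = 1.08e-06). Its log2 fold change was above -1 with library totals (-0.99), without control replicate 1 (-0.93) and without Erastin replicate 1 (-0.96). MT-RNR1 counts were 10.5% and 10.9% of MT-RNR2 counts in control cells and 10.1% and 9.86% in Erastin-treated cells, a small difference without overlap. The rRNAs took 9.17% and 8.81% of the mitochondrial counts in control cells and 11.5% and 10.1% in Erastin-treated cells. The study's methods do not say how RNA was selected for the libraries. These are thus shares of counts and need not be the make-up of mitochondrial RNA in the cells.

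Of the 22 tRNA genes, which are between 59 and 75 bases long, 20 were at 0 in all 4 libraries. A count of 0 allows up to 3 counts per library. The 2 with counts, MT-TP and MT-TF, are the tRNA genes that border the control region, with 546 and 576 bases free of genes beside them. None of the other 20 has a free stretch longer than 31 bases beside it, and for none of them does a stretch of 150 bases touch it and no other gene, as the sequence around MT-TG shows. With reads of that length, the zeros give no level for these tRNAs. MT-TP (chrMT:15956-16023, the proline tRNA, minus strand) had 752 and 660 counts in control cells and 241 and 296 counts in Erastin-treated cells. Its log2 fold change was -1.39 (SE 0.143, edgeR adjusted p = 8.76e-06), and the counts cannot be assigned to a strand, nor to the tRNA as against longer RNA that ends in the control region. MT-TF (chrMT:577-647, the phenylalanine tRNA) had 3, 3, 0 and 3 counts, too few to compare.

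**Figure D2:**
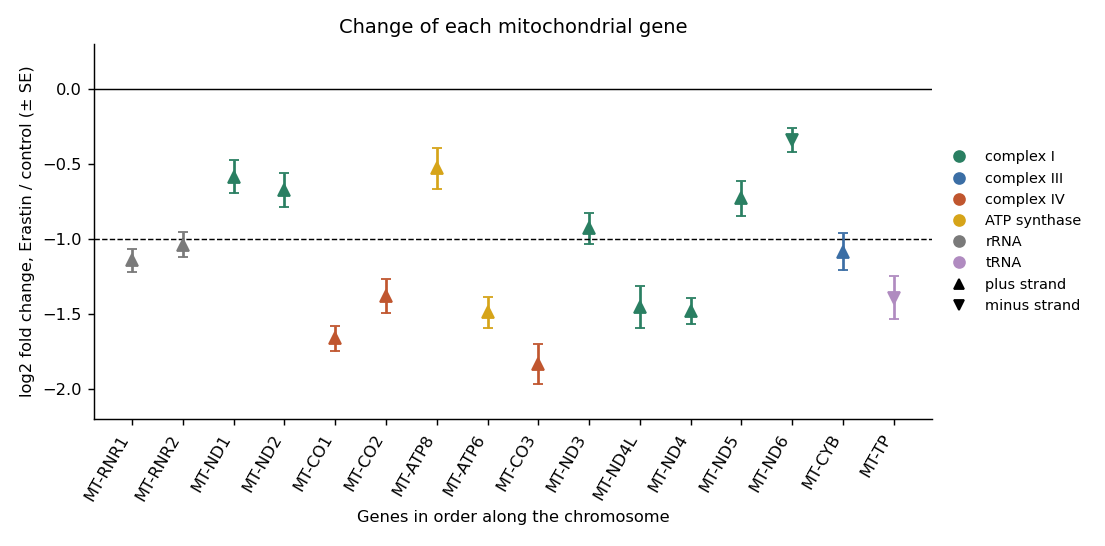
Log2 fold change (Erastin over control, points with SE bars from the edgeR fit, n = 2 libraries per group) of the 16 tested mitochondrial genes in order along the chromosome. Colours give the complex or RNA class, triangles pointing up and down mark the plus and the minus strand, and the dashed line is at -1. The points range from -1.83 for MT-CO3 to -0.34 for MT-ND6, and neighbours in the order along the chromosome often differ.

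The 16 genes were ordered by log2 fold change. From the lowest upwards they were MT-CO3, MT-CO1, MT-ATP6, MT-ND4, MT-ND4L, MT-TP, MT-CO2, MT-RNR1, MT-CYB, MT-RNR2, MT-ND3, MT-ND5, MT-ND2, MT-ND1, MT-ATP8 and MT-ND6. None of the 15 steps between neighbours in this order exceeded 2 combined standard errors, the largest being 0.24. These errors treat the genes as independent, although the mRNAs of a library shifted together. Sorting by the same values also makes the steps small, so their size does not test whether the genes form groups. As ratios of counts within a library, which leave out a shared shift, 8 of the 15 neighbouring pairs separated the groups and 7 overlapped. MT-ND3 counts, for example, were 19.3% and 18.6% of MT-ND5 counts in control cells and 17.3% and 15.9% in Erastin-treated cells. The direction of these ratios is set by the order itself. No share over other pairs of genes was computed, so the count of 8 does not test whether neighbours differ. Position along the chromosome did not order the changes. Over the 13 mRNAs, start position and log2 fold change had a Pearson correlation of 0.06 and a Spearman correlation of 0.02. MT-CO3 and MT-ND3, separated only by the tRNA gene printed above, had log2 fold changes of -1.83 and -0.93. MT-ND4 and MT-ND5, separated by 3 tRNA genes, had -1.48 and -0.73.

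The 6 mRNAs with the highest control levels per kilobase also had the 6 lowest log2 fold changes, though not in the same order, since MT-CO2 had the highest level and the least change of the 6. In CPM per kilobase of gene, with CPM from library totals, control cells held 12185 ± 651 of MT-CO2, 11518 ± 644 of MT-CO1, 9306 ± 484 of MT-ND4 and 8919 ± 665 of MT-CO3 (mean ± SD, n = 2). Intermediate levels were found for MT-ATP6 (7449 ± 385), MT-ND4L (5452 ± 572), MT-ND2 (4099 ± 110), MT-CYB (3693 ± 106) and MT-ND1 (3587 ± 211). The lowest levels per kilobase, apart from that of MT-ATP8, were those of MT-ND5 (1569 ± 77.8), MT-ND3 (1557 ± 120) and MT-ND6 (1276 ± 114). The library values of MT-CO2 and MT-CO1 overlapped, as did those of MT-ND4 and MT-CO3, of MT-CYB and MT-ND1, and of MT-ND5 and MT-ND3, while the other neighbours in this order did not overlap. This order depends on how length is counted. Per 100 stretches of 150 bases that touch the gene and no other, MT-ND4L (1148 ± 121 CPM) came after MT-CO2 and MT-CO1 and beside MT-CO3 (1103 ± 82.2), MT-ND4 (1049 ± 54.6) and MT-ATP6 (1046 ± 54.0), and MT-ND5 (171 ± 8.47) was the lowest of the 12 mRNAs other than MT-ATP8, with library values that overlapped those of MT-ND6.

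In Erastin-treated cells the levels per kilobase lay closer together. Leaving out MT-ATP8, they ran from 4855 ± 987 for MT-CO2 to 848 ± 139 for MT-ND3, with 3777 ± 403 for MT-CO1, 3462 ± 429 for MT-ND4, 2662 ± 586 for MT-ND2, 2596 ± 629 for MT-CO3 and 2481 ± 513 for MT-ND1. The library values of MT-CO3, far above those of MT-ND2 in control cells, overlapped with them in Erastin-treated cells. Without MT-ATP8, the ratio of the highest to the lowest of the 12 mRNAs was 9.55 in control cells and 5.73 in Erastin-treated cells. Across the 13 mRNAs the control level per kilobase and the log2 fold change had a Pearson correlation of -0.74 on log2 levels and a Spearman correlation of -0.82. Without MT-ATP8 they were -0.83 and -0.78 (n = 12). Both measures contain the control libraries and the points share long transcripts, so these are descriptions. Gene length (Pearson -0.15) and GC content (Pearson -0.41) had weaker correlations with the log2 fold change over the 13 mRNAs.

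**Figure D3:**
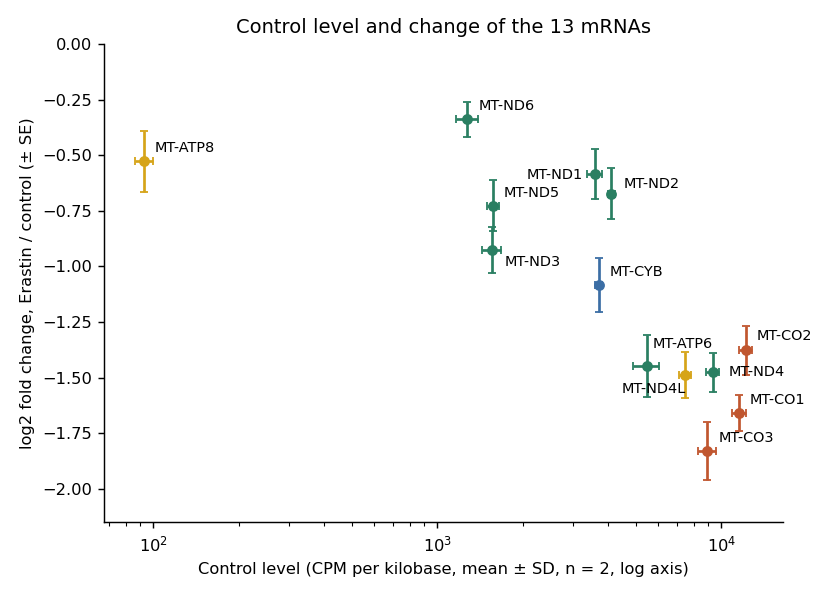
Control level of each of the 13 mitochondrial mRNAs (CPM per kilobase of gene, mean ± SD of 2 libraries, log axis) against its log2 fold change with Erastin (± SE). Colours give the complex as green for I, blue for III, orange for IV and yellow for the ATP synthase. The 4 mRNAs with the highest control levels lie at -1.38 or below, and MT-ND6 and MT-ATP8 lie at the upper left.

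The make-up of the mitochondrial mRNA counts, which does not depend on how the libraries are scaled to nuclear RNA, shifted with Erastin. MT-CO1 took 25.9% of the mRNA counts in each control library and 21.7% and 19.7% in the Erastin libraries. MT-CO3 went from 10.3% and 10.0% to 6.80% and 7.50%. MT-ND4 went from 18.7% in each control library to 17.6% and 16.3%, while MT-ATP6 and MT-CO2 had small losses of share, with mean differences of -0.78 and -0.44 percentage points. Higher shares were found for MT-ND2, from 6.11% and 6.35% to 9.45% and 10.1%, and for MT-ND1, from 5.01% and 4.98% to 8.17% and 8.56%. MT-ND5 went from 4.13% and 4.16% to 6.06% and 6.47%, and MT-CYB from 6.04% and 6.26% to 6.90% and 7.59%. In all, 7 mRNAs, MT-ATP8 among them, had a higher share in both Erastin libraries than in both control libraries, 5 had a lower share, and MT-ND4L overlapped. With counts first divided by gene length, the MT-ND4L share was lower in both Erastin libraries. A lower share of some mRNAs raises the share of others, and all 13 mRNAs fell in level. MT-ND2 counts were 23.6% and 24.6% of MT-CO1 counts in control cells and 43.5% and 51.2% in Erastin-treated cells. MT-CYB counts went from 58.4% and 62.3% of MT-CO3 counts to 101% in both Erastin libraries.

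**Figure D4:**
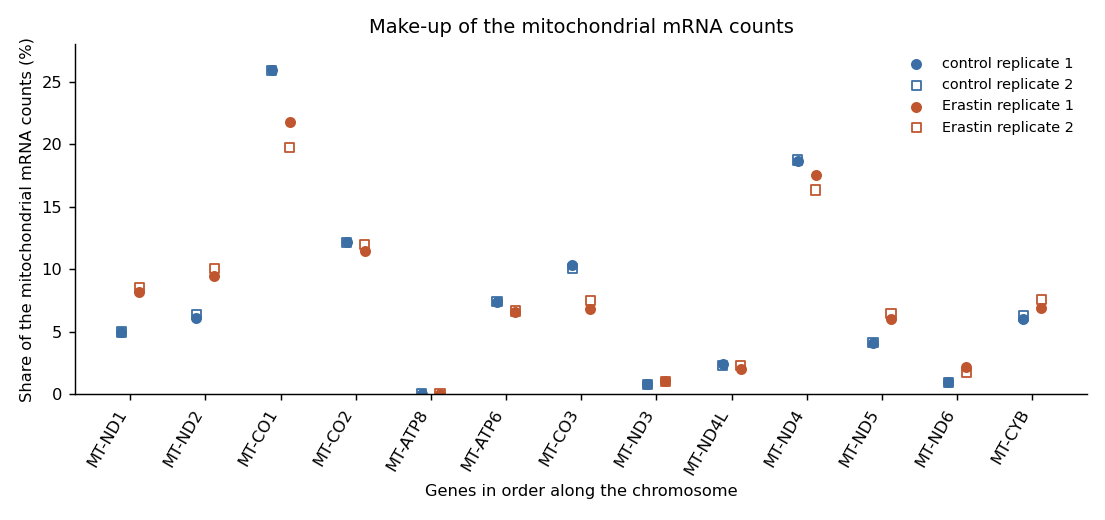
Share of each mRNA in the mitochondrial mRNA counts of each library (percent), with genes in order along the chromosome. Blue points are control libraries and orange points Erastin libraries, and filled circles and open squares are replicates 1 and 2. The shares of MT-CO1 and MT-CO3 are lower and those of MT-ND1, MT-ND2 and MT-ND5 higher in both Erastin libraries.

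The replicates differed in a coordinated way. Control replicate 2 lay below control replicate 1 in 13 of 13 mRNAs, by a median of -0.15 on the log2 scale. Erastin replicate 2 lay above Erastin replicate 1 in 13 of 13 mRNAs, by a median of 0.42 (range 0.08 to 0.54). Over all tested genes the medians of these differences were 0.00038 and -0.0042. The spread between the Erastin libraries was therefore a shared shift of the mitochondrial mRNAs, largest for MT-ND4L and smallest for MT-ND6, and the direction of the treatment difference was the same with either Erastin library alone.

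Parts of the mitochondrial genome also occur in nuclear chromosomes, and a read that fits several places had been left out of the counts. Of the stretches of 100 bases that touch MT-CO1 and no other gene, 28.5% also occur letter for letter in a nuclear chromosome of GRCh38, and the share was 26.1% for MT-ND2 and 21.2% for MT-RNR1. The longest such match ran over 279 bases at chr1:629627-629905. For 7 mRNAs, namely MT-ATP8, MT-ND3, MT-ND4L, MT-ND4, MT-ND5, MT-ND6 and MT-CYB, no stretch of 100 bases occurred there. The median log2 fold change was -0.93 in these 7 (range -1.48 to -0.34) and -1.43 in the other 6 (range -1.83 to -0.58). The ranges overlapped, and all 7 mRNAs without such an exact match fell, as did the other 6. Nuclear copies that differ in some bases were not searched for, and MT-ND4 has such a copy with counts, MTND4P12. Whether reads lost to nuclear copies affected the changes was not tested.

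Nuclear genes for subunits of the same complexes moved in both directions. Of 72 listed nuclear subunits of complexes I, III and IV and the ATP synthase, 70 had enough counts to be tested. At an adjusted p under 0.05 (edgeR), 11 of the 70 fell, 11 rose and 48 did not pass the test. Over all tested genes, 23.7% were lower and 23.2% higher. The median log2 fold change of the 70 subunits was 0.03. Of 35 nuclear complex I subunits, 3 fell and 5 rose (median 0.08), and of 11 nuclear complex IV subunits 0 fell and 3 rose (median 0.06). By DESeq2, 7 rather than 11 of the 70 were lower. Without Erastin replicate 2 the count of lower genes was 5, and without Erastin replicate 1 that of higher genes was 4. Of 9 complex III subunits 2 fell and 1 rose, and of 15 ATP synthase subunits 6 fell and 2 rose (median -0.15). UQCRC2, a core subunit of complex III, was the single one of the 70 past both thresholds (1 lower and 0 higher, against 9.34% and 6.24% of all tested genes), with 66 and 299 counts in control cells and 81 and 47 in Erastin-treated cells. The lower control library lay within the Erastin values, and the gene is named here because of that count. Reads on more than 1 gene or place were left out, and whether this lowered the counts of UQCRC2 was not tested. Of the 4 subunits of complex II, SDHA fell by 0.51 (SE 0.0784, edgeR adjusted p = 0.000208) and SDHC rose by 0.56 (SE 0.0707, edgeR adjusted p = 4.88e-05), which were named after their values were seen. The difference between mitochondrial and nuclear subunits as groups was not tested.

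**Figure D5:**
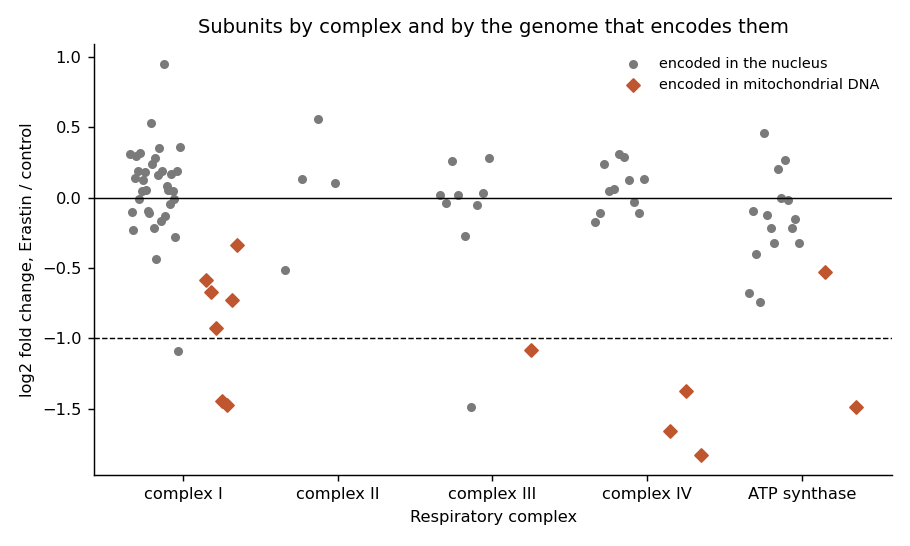
Log2 fold change (Erastin over control) of the tested subunits of each respiratory complex, with nuclear genes as grey circles and mitochondrial genes as orange diamonds. The dashed line is at -1. Nuclear subunits scatter around 0 with medians between -0.15 and 0.12, and all 13 mitochondrial mRNAs lie below 0.

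Among 48 nuclear genes for proteins that transcribe, copy, cut, modify or degrade mitochondrial nucleic acids, 7 fell, 13 rose and 28 did not pass the test (median 0.11). POLRMT, the mitochondrial RNA polymerase, had 3508 and 3171 counts in control cells and 2398 and 2047 in Erastin-treated cells. It fell by 0.58 (SE 0.0991, edgeR adjusted p = 0.0005), with no overlap between the groups. SLIRP, which with LRPPRC binds and stabilises mitochondrial mRNAs, fell by 0.55 (SE 0.109, edgeR adjusted p = 0.00147), from 868 and 861 counts to 556 and 622. The log2 fold change of LRPPRC itself was -0.10 (edgeR adjusted p = 0.238). TFAM, which packs mitochondrial DNA and starts transcription, was at 0.06 (edgeR adjusted p = 0.596), and TFB2M, the other initiation factor, at -0.03 (edgeR adjusted p = 0.846). These p-values do not show that their levels were equal. These counts stand beside 23.7% of all tested genes that fell and 23.2% that rose, as do those of the groups within the list, which are small. Of 8 transcription factors in the list 1 fell and 2 rose, of 4 genes for cutting the long RNAs none passed the test, and of 15 genes for tails, stability and decay 1 fell and 3 rose. Of 14 genes for modifying tRNA and rRNA, 4 fell and 7 rose. MRM1, which modifies MT-RNR2, was the single gene of the 48 past both thresholds (9.34% of all tested genes were lower by that rule), from 13 and 139 counts to 6 and 10. It is named because of that count, and its control libraries differed more than 10-fold.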

How the data were processed

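Total RNA of 2 control and 2 Erastin-treated U87 libraries had been sequenced by the authors. The deposited table holds read counts per gene without normalization. Its header names featureCounts 2.0.3 (the submitters' processing notes list 2.0.4), with the Ensembl release 90 annotation of GRCh38, and the notes list HISAT2 2.1.0. The study's methods name htseq-count in place of featureCounts. By the command in the header, both reads of a pair were counted on their own, strand was ignored, and reads on more than 1 gene or place were left out. The deposited values of all 4 libraries were tested for the decimals of estimated counts (expected counts), and 0 values were not whole.

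Counts were fitted in R 4.3.3 with edgeR 4.0.16. filterByExpr (minimum count 10) kept 16751 genes, TMM gave the scaling (factors 0.971 to 1.02), and the groups were compared by the quasi-likelihood test, with two-sided p-values adjusted by Benjamini-Hochberg over all tested genes. The median prior degrees of freedom were 9.48. Thresholds were an adjusted p under 0.05 and, as the stricter rule, also a log2 fold change at or beyond 1 in either direction. Standard errors were derived from the F statistic and the log2 fold change. P-values set the difference against the spread between these 2 libraries per group. The fit moderates that spread with the spread of the other tested genes. On simulated data for this comparison (16751 genes, 200 changed) edgeR recovered 199 and called 15 unchanged genes, and DESeq2 1.42.0 recovered 197 and called 11. Levels per kilobase used library totals and the gene length in the table. Coordinates and sequences came from GRCh38 with GENCODE release 44.

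The genes, lists and tests were chosen with earlier results of these data known. All mitochondrial genes could be named. From the nuclear lists the rule named up to 5 rises and 5 falls past both thresholds with a mean of at least 10 CPM, which no gene met, plus POLRMT, TFAM, TFB2M, LRPPRC and SLIRP, and of the nuclear pseudogenes the 5 with most counts. Same-numbered libraries deviated with a correlation of 0.0203 over 16751 genes, and the labels do not say that a number marks a shared batch, so the main fit has no block. Alternatives were DESeq2, RLE size factors, library totals, scaling on nuclear genes, other low-count filters, a replicate block, counts divided by 2, other denominators, shares per gene length, and each library left out. ChIP-seq and HiChIP data were not analysed here.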

Additional observations from a re-analysis of the deposited data

How the results depend on the processing

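The 16 tested mitochondrial genes were refitted under 12 alternatives each, which gave 192 values. Of these 191 kept their direction and their side of the adjusted p threshold, 0 reversed, and 1 lost the call (MT-ATP8 without Erastin replicate 1, -0.41). The count past both thresholds was 10 in the main fit and with DESeq2, RLE size factors, scaling on nuclear genes, both other filters and counts divided by 2, and 9 with library totals. With 1 library left out it lay between 8 and 11, the median log2 fold change of the mRNAs between -1.35 and -0.86, and the difference in mitochondrial share between -4.74 and -4.002 percentage points. With a replicate block the median was -1.10, the counts were again 10 and 16, and 12 of the nuclear subunits fell and 12 rose. Fits with 1 library in a group assume that it varies like the other group.

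Of the 70 nuclear subunits, 11 fell and 11 rose in the main fit, but 7 fell with DESeq2. With 1 library left out, between 5 and 12 fell and between 4 and 11 rose, the lowest values being those without Erastin replicate 2 (5 lower) and without Erastin replicate 1 (4 higher). The list of 48 mitochondrial RNA factors gave 5 to 7 lower and 9 to 13 higher with 1 library left out, 6 and 10 with DESeq2, and 7 and 14 with library totals and with the replicate block. The change in the share of MT-CO1 was -5.17 percentage points of the mRNA counts and -3.35 when counts were first divided by gene length. Library totals moved the median of all tested genes to 0.05. The counts cannot show the levels of 20 tRNAs, and the absence of strand limits MT-ND6 and MT-TP.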

Other observations

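Nuclear pseudogenes of mitochondrial genes, which are copies of mitochondrial DNA in nuclear chromosomes, had fewer counts in Erastin-treated cells. The table lists 404 of them and 59 had a count. Together they held 52346 and 44752 counts in control cells and 15503 and 20948 in Erastin-treated cells, or 0.166% and 0.143% against 0.0527% and 0.0677% of all counts. The 5 with most counts held 99.7% of these. MTATP6P1 on chromosome 1 had 38190 and 33491 counts against 11159 and 13544, and MTND2P28 on chromosome 1 had 12259 and 9887 against 3876 and 6854. MTCO1P12 had 1533 and 1088 against 355 and 423, MTND4P12 on chromosome 5 had 186 and 124 against 44 and 51, and MTND1P23 had 48 and 30 against 4 and 11. Of 6 tested pseudogenes, 5 fell past both thresholds (edgeR), compared with 9.34% of all tested genes. Reads of a mitochondrial gene and of its nuclear copy can be exchanged where they are nearly identical, so these counts are uncertain.

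Of 10 nuclear RNAs that carry no poly(A) tail, 5 were at 0 in every library (RN7SK, RMRP, RPPH1, RN7SL1 and SCARNA2). Reads that fit several genes or places had been left out of the counts, and whether this emptied these 5 was not tested. The zeros thus do not show that these RNAs were absent. RN7SL2, the RNA of the signal recognition particle, was the only RNA of the 10 with enough counts to be tested. It had 207 and 89 counts in control cells and 24 and 42 in Erastin-treated cells, and its near-identical copies make these counts uncertain.

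The reading frames of 6 mitochondrial mRNAs end in the reference without a full last codon, which the tail then completes. MT-ND1 ends in TA, and MT-ND2, MT-CO3, MT-ND3, MT-ND4 and MT-CYB end in T. The median log2 fold change was -1.005 in these 6 (range -1.83 to -0.58) and -1.38 in the 7 with a full last codon (range -1.66 to -0.34), and the ranges overlapped.

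Of the nuclear genes for mitochondrial RNA proteins, a few were chosen after their values were seen. MTERF1, which ends transcription on mitochondrial DNA, rose by 0.81 (SE 0.127, edgeR adjusted p = 0.000243) from 361 and 343 counts to 595 and 636. NSUN4, which modifies MT-RNR1, rose by 0.84 (SE 0.111, edgeR adjusted p = 7.04e-05), and TFB1M, which modifies the same rRNA, fell by 0.92 (SE 0.121, edgeR adjusted p = 6.60e-05). SUPV3L1, the helicase of the RNA decay complex, rose by 0.39 (SE 0.0830, edgeR adjusted p = 0.00223).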
